A study of Penicillium oxalicum with 18 samples.

Results

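Transcript levels of the 4 major cellulase genes of the filamentous fungus Penicillium oxalicum were followed over 18 libraries. They are cel7A-2 (PDE_07945), the gene of cellobiohydrolase I, cel6A (PDE_07124), that of cellobiohydrolase II, and the endoglucanase genes cel5B (PDE_09226) and cel7B (PDE_07929). The members were fixed by their locus tags and are 4 of the 9261 identifiers in the deposited table. The table itself gives no gene names. The names used here, those of the other named genes included, follow published work on the wild-type strain as recalled and could not be checked against the files. The groups were the nag3 deletion strain and the wild-type strain 114-2, each on bran-cellulose (1% bran with 1% microcrystalline cellulose), on 2% GlcNAc (N-acetylglucosamine, from which chitin is built) and on 2% glucose, with 3 libraries in each of the 6 groups. Mycelium of every group was first grown for 24 h at 30 °C with 2% glucose and then spent 24 h in its test medium. The growth protocol names the glucose and bran-cellulose media, while the sample labels name all 3. The study asked, by its title, how Nag3 bears on development and on cellulolytic genes.

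Cellulose is broken down by enzymes that act at different places on the chain. Cellobiohydrolases release cellobiose from chain ends, cellobiohydrolase I from the reducing end and cellobiohydrolase II from the non-reducing end, and endoglucanases cut within the chain. β-Glucosidases then split cellobiose to glucose. In filamentous fungi the genes of these enzymes are held low on glucose, where the repressor CreA acts, and are switched on by plant polymers through activators such as ClrB and XlnR. Penicillium oxalicum is grown as a producer of such enzymes, and cellobiohydrolase I is a main component of what it secretes.

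Levels are in FPKM, fragments per kilobase of gene scaled by the authors to the mapped fragments of each library. Their sum over all identifiers lay between 920824 and 1083828 per library. Replicates of a group correlated at 0.963 to 0.990 (Pearson r of log2(FPKM + 1) across genes), and no 2 libraries held identical values. Nothing in the labels ties the 3 replicates to separate cultures, and p-values measure the spread among these libraries alone, which could be technical. No locus tag is paired with nag3, and the deletion was not checked by its own transcript. The labels' protocol describes libraries of short tags, while FPKM divides by gene length, so the level of one gene relative to another may hold a constant factor for each gene. Such a factor drops out of the fold of a single gene and of the change of a ratio between groups. It does not drop out of the order of the 4 genes, their sum, their shares of it or their ranks, which hold for FPKM as deposited. Nor does it wholly drop out of differences of log2(FPKM + 1), used below to test single genes, above all at a few FPKM. Read depth is unknown, and in RNA from whole mycelium fewer expressing cells and less RNA per cell cannot be told apart.

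On bran-cellulose all 4 genes were abundant transcripts. The cellobiohydrolase I gene cel7A-2 had 1344, 1619.6 and 1523 FPKM in the deletion, against 2160.0, 2414 and 2257 FPKM in the wild type. It was the highest of the 4 in each of these 6 libraries. The cellobiohydrolase II gene cel6A had 552, 702 and 639 FPKM in the deletion, against 1003, 1287 and 1287 FPKM in the wild type. Its highest deletion library lay below its lowest wild-type library.

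The endoglucanase gene cel5B had 916, 1065 and 878 FPKM in the deletion on bran-cellulose, against 1104, 1338 and 1322 FPKM in the wild type. The endoglucanase gene cel7B was the lowest of the 4, at 185, 206 and 185 FPKM in the deletion, against 299, 318 and 306 FPKM in the wild type. For these endoglucanase genes too, the deletion and wild-type libraries did not overlap. How many of all genes stood apart between genotypes in this way, here or on the sugars, was not counted. The order cel7A-2, cel5B, cel6A, cel7B held in every bran-cellulose library, although the ranges of cel5B and cel6A overlapped in the wild type.

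On the 2 sugars the same genes sat at a few FPKM. cel7A-2 had 9.87, 9.80 and 7.67 FPKM in the deletion on GlcNAc, against 1.85, 2.78 and 2.82 FPKM in the wild type on GlcNAc. On glucose it had 3.52, 6.51 and 2.72 FPKM in the deletion, against 2.90, 4.05 and 2.68 FPKM in the wild type. The GlcNAc libraries of the genotypes stood apart, with the deletion on GlcNAc above every glucose library, while both glucose groups and the wild type on GlcNAc overlapped their neighbours in level. cel6A had 11.2, 9.81 and 12.5 FPKM in the deletion on GlcNAc, against 5.83, 4.75 and 3.44 FPKM in the wild type on GlcNAc. On glucose cel6A had 13.9, 10.6 and 11.2 FPKM in the deletion, against 11.1, 9.05 and 8.24 FPKM in the wild type. Only the wild type on GlcNAc was set apart from the other 3 sugar groups of this gene, whose ranges overlapped.

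The endoglucanase genes were also at a few FPKM on the sugars. cel5B had 11.4, 11.9 and 13.5 FPKM in the deletion on GlcNAc, against 6.68, 6.43 and 5.67 FPKM in the wild type on GlcNAc. On glucose cel5B was at 6.67, 6.88 and 8.23 FPKM in the deletion, against 7.16, 8.21 and 6.16 FPKM in the wild type. The GlcNAc libraries of cel5B stood apart between genotypes and its glucose libraries overlapped. cel7B had 7.09, 7.04 and 9.32 FPKM in the deletion on GlcNAc, against 4.68, 5.25 and 4.29 FPKM in the wild type on GlcNAc. On glucose cel7B was at 4.52, 4.19 and 3.51 FPKM in the deletion, against 4.56, 3.73 and 4.82 FPKM in the wild type. For both endoglucanase genes the deletion on GlcNAc was the highest of the 4 sugar groups and did not overlap the others, which overlapped their neighbours in level.

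**Figure D1:**
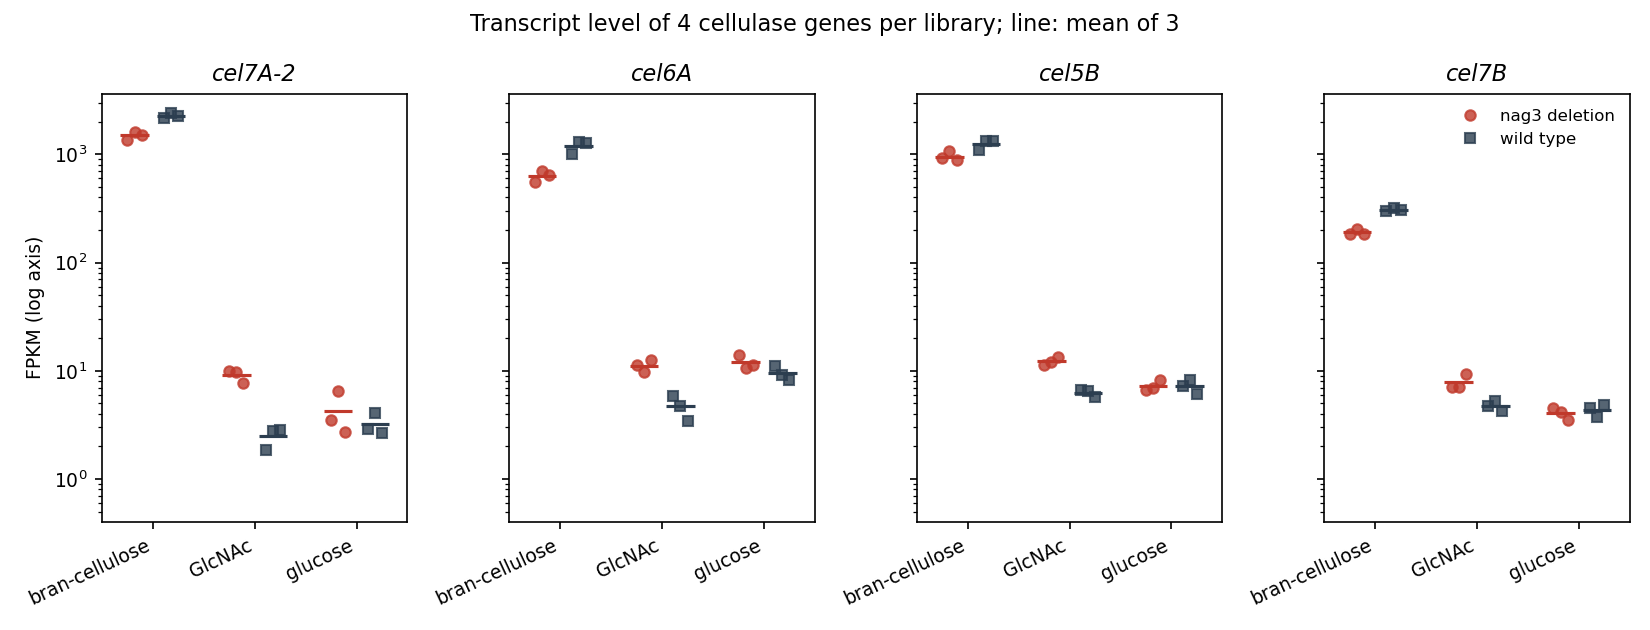
FPKM of each gene (log axis) in the 3 libraries of each genotype and medium, circles for the nag3 deletion, squares for the wild type, lines for group means. All bran-cellulose libraries lie at 185 FPKM or above and all sugar libraries at 13.9 FPKM or below, and the genotypes stand apart on bran-cellulose and on GlcNAc but overlap on glucose.

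The rise on bran-cellulose was shared by all 4 genes, in both genotypes and against both sugars. Over glucose, the mean level of cel7A-2 was 352-fold higher in the deletion and 709-fold higher in the wild type. The same ratio of means was 52.9 in the deletion and 126 in the wild type for cel6A, 131 and 175 for cel5B, and 47.1 and 70.4 for cel7B. Over GlcNAc, the fold was 164 in the deletion and 917 in the wild type for cel7A-2, 56.5 and 255 for cel6A, 77.7 and 200.5 for cel5B, and 24.5 and 64.9 for cel7B.

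These differences were tested with limma, which was fitted to log2(FPKM + 1) of the 8390 genes that reached 1 FPKM in 3 or more libraries. All 4 members passed that filter, and each had at least 1 FPKM in all 18 libraries. A gene was called at a Benjamini-Hochberg adjusted p under 0.05 with a log2 difference of at least 1 in size, and "rose" and "fell" are kept for called genes. All 4 rose in each of the 4 comparisons of bran-cellulose with a sugar. Of all genes tested, 12.4% rose over glucose in the deletion and 10.8% in the wild type, and 11.4% rose over GlcNAc in the deletion and 12.2% in the wild type. The median log2 difference of the 4 was 6.23 in the deletion and 7.05 in the wild type over glucose, and 5.93 in the deletion and 7.58 in the wild type over GlcNAc. The medians of all genes tested were 0.09, 0.16, -0.02 and 0.15 in the same order. limma's adjusted p lay between 3.26e-15 and 1.69e-12 for these 16 tests. The comparisons over glucose and over GlcNAc share their bran-cellulose libraries and are given side by side only.

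The place of the 4 genes among all genes by the size of this log2 difference also differed between genotypes. In the deletion over glucose, cel7A-2 had the 25th highest log2 difference of the 8390 genes, cel5B the 53rd, cel6A the 93rd and cel7B the 113th. In the wild type over glucose cel7A-2 was 2nd, cel5B 7th, cel6A 8th and cel7B 14th. Over GlcNAc, cel7A-2 was 17th in the deletion and 3rd in the wild type, cel6A 50th and 5th, cel5B 35th and 10th, and cel7B 82nd and 18th. A place in such a list also depends on how many other genes moved, and 2031 genes were called in the deletion over glucose, against 1570 in the wild type.

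**Figure D2:**
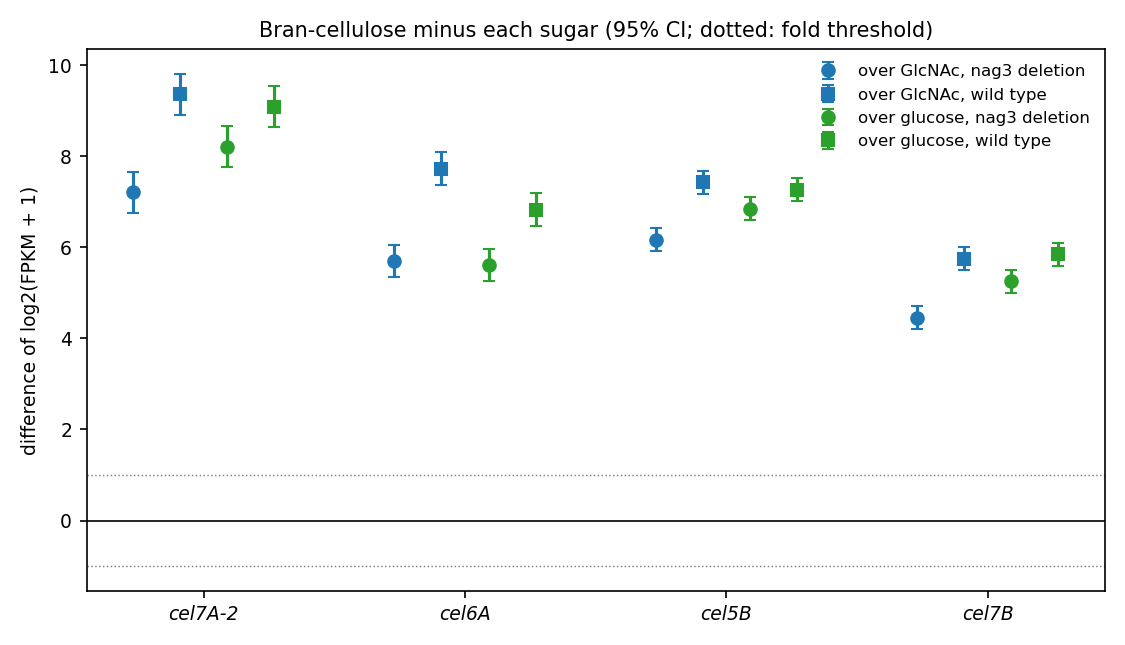
Difference of log2(FPKM + 1) between bran-cellulose and each sugar for the 4 genes, with 95% confidence intervals from the limma fit; circles are the nag3 deletion and squares the wild type, blue over GlcNAc and green over glucose. Every value lies above 4, those of cel7A-2 are the highest within each comparison, and the wild-type value exceeds the deletion value in each pair.

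By level, cel7A-2 ranked 100th, 76th and 83rd among the 9261 identifiers in the deletion libraries on bran-cellulose, against 53rd, 44th and 52nd in the wild type. By group means, 84 identifiers lay above it in the deletion and 50 in the wild type. cel5B ranked between 159 and 189 in the deletion and between 107 and 147 in the wild type. It was the highest-ranked of the 2 endoglucanase genes. cel6A ranked between 237 and 288 in the deletion and between 118 and 171 in the wild type. cel7B ranked between 752 and 871 in the deletion and between 508 and 545 in the wild type. For each of the 4 genes the ranks of the genotypes did not overlap on bran-cellulose, which describes these genes only, as the share of all genes was not counted. On the sugars the 4 genes ranked between 5556 and 7527 in the 12 libraries, and on glucose the ranks of the genotypes overlapped for each gene.

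**Figure D3:**
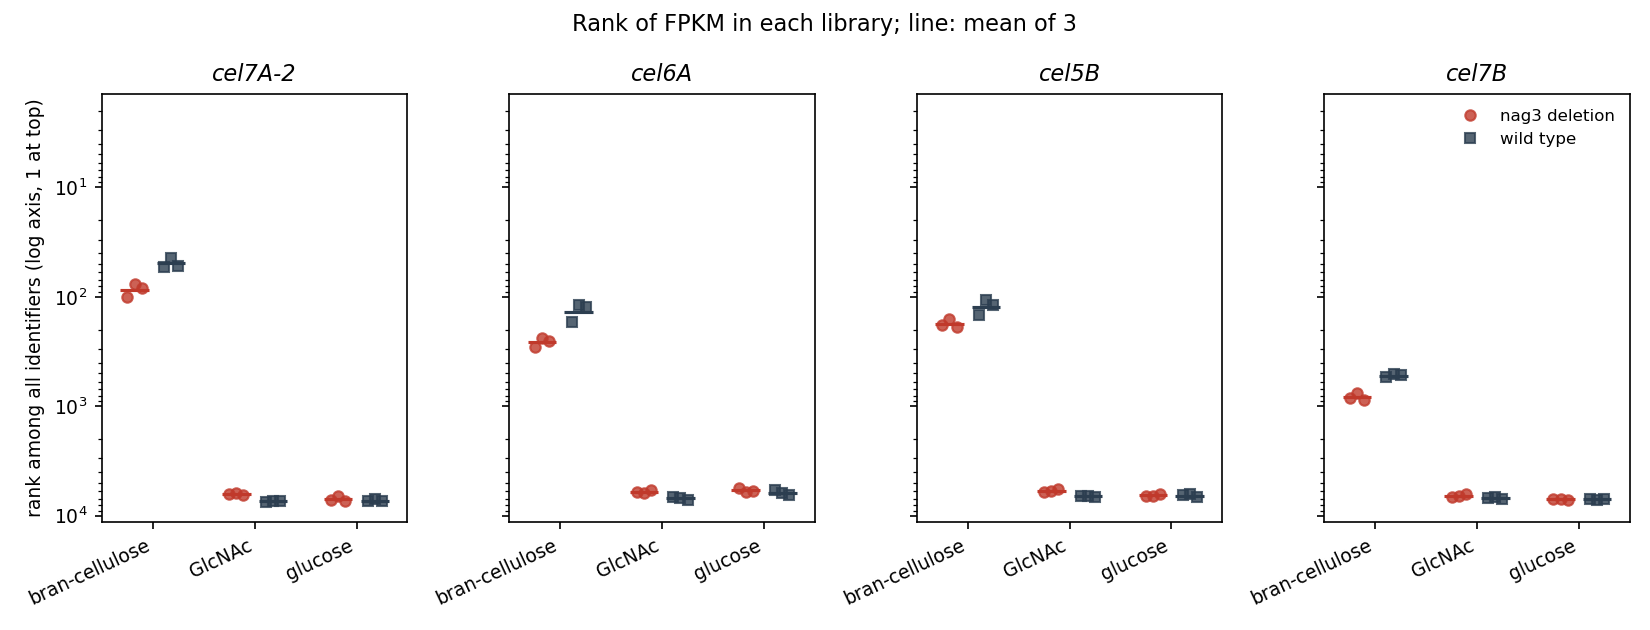
Rank of each gene's FPKM among all 9261 identifiers in each library (log axis, highest level at the top), circles for the nag3 deletion, squares for the wild type, lines for the mean rank. On bran-cellulose cel7A-2 ranks between 76 and 100 in the deletion and between 44 and 53 in the wild type, and on both sugars the best rank of any of the 4 genes is 5556.

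The 4 genes together had a summed level of 3271 ± 301 FPKM in the deletion on bran-cellulose and 5032 ± 414 FPKM in the wild type (SD, n = 3 each), or 0.332% and 0.495% of all FPKM. On GlcNAc the sum was 40.4 ± 2.31 FPKM in the deletion and 18.2 ± 1.68 FPKM in the wild type. On glucose it was 27.5 ± 1.60 FPKM in the deletion and 24.2 ± 2.05 FPKM in the wild type. The sum in the deletion was thus below the wild type on bran-cellulose and above it on GlcNAc in every library.

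The make-up of this sum, in FPKM as deposited, differed between media. cel7A-2 supplied 45.7 ± 1.31% of it in the deletion on bran-cellulose and 45.3 ± 1.85% in the wild type (SD, n = 3 each), but 22.7 ± 4.24% in the deletion and 13.9 ± 3.87% in the wild type on GlcNAc. On glucose its share was 15.3 ± 6.77% in the deletion and 13.2 ± 2.60% in the wild type. The genotypes overlapped in this share on bran-cellulose and on glucose but not on GlcNAc. By FPKM, without a correction for the factor named above, cel6A was the largest part on glucose, with 43.4 ± 5.50% in the deletion and 39.0 ± 3.75% in the wild type, and supplied 19.3 ± 0.745% in the deletion and 23.6 ± 1.49% in the wild type on bran-cellulose. Its share on bran-cellulose was lower in the deletion in every library. On GlcNAc the largest part was cel5B, with 30.4 ± 1.47% in the deletion and 34.5 ± 0.896% in the wild type. cel7B was the smallest part on bran-cellulose, at 5.87 ± 0.246% in the deletion and 6.13 ± 0.352% in the wild type. On GlcNAc cel7B reached 19.3 ± 2.08% in the deletion and 26.1 ± 1.40% in the wild type.

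**Figure D4:**
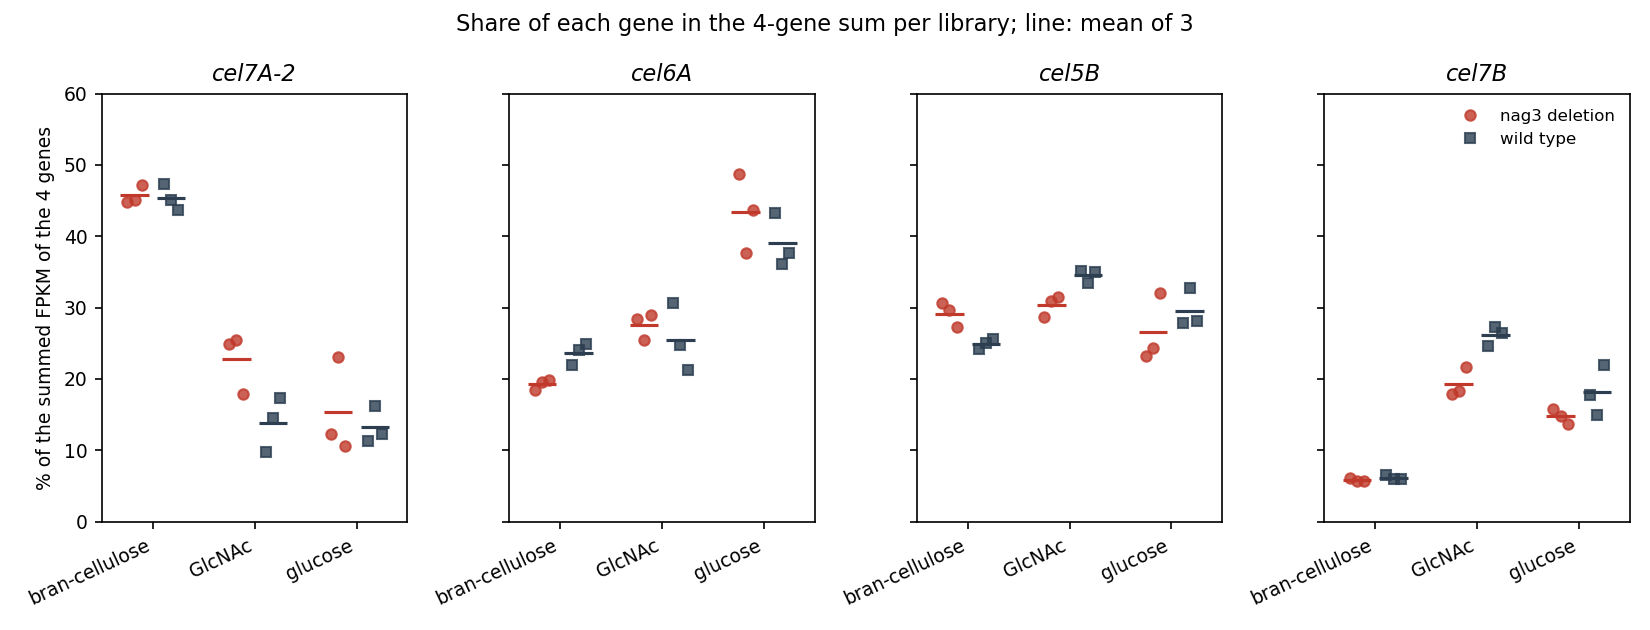
Percent of the summed FPKM of the 4 genes that each gene supplied in each library, circles for the nag3 deletion, squares for the wild type, lines for the mean of 3. cel7A-2 supplies 43.6% to 47.3% on bran-cellulose in both genotypes and 25.4% or less on the sugars, while cel6A supplies 36.1% or more on glucose.

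To ask whether one gene moved more than another, the log2 ratio of FPKM was taken for each of the 6 pairs in every library. Media were compared over both genotypes, 6 libraries against 6, by an exact two-sided permutation test within genotype. Genotypes were compared over all media, 9 libraries against 9, by the same test within medium. In all 24 such tests were run and adjusted together by the Benjamini-Hochberg method. The smallest p the 400 arrangements of a comparison of media can give is 0.005, and the 8000 arrangements of the comparison of genotypes can give 0.00025.

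The ratio of cel7A-2 to cel7B, cellobiohydrolase I to an endoglucanase, changed most. On bran-cellulose it was between 7.28 and 8.23 in the deletion and between 7.24 and 7.58 in the wild type. On GlcNAc it was between 0.823 and 1.39 in the deletion and between 0.395 and 0.657 in the wild type, and on glucose between 0.775 and 1.55 in the deletion and between 0.556 and 1.09 in the wild type. The ratio was 9.77-fold higher on bran-cellulose than on GlcNAc and 8.997-fold higher than on glucose, each with an exact permutation p = 0.005 and an adjusted p = 0.01. The media did not overlap within either genotype.

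The other ratios of cel7A-2 shifted the same way on bran-cellulose. The ratio of cel7A-2 to cel6A was 6.37-fold higher on bran-cellulose than on glucose and 3.24-fold higher than on GlcNAc. Its geometric mean was 2.38 in the deletion and 1.92 in the wild type on bran-cellulose, against 0.335 in the deletion and 0.336 in the wild type on glucose. The ratio of cel7A-2 to cel5B was 3.43-fold higher on bran-cellulose than on glucose and 3.14-fold higher than on GlcNAc. The ratio of cel5B to cel7B was 2.62-fold and 3.11-fold higher in the same comparisons. In each of these 6 comparisons the exact permutation p was 0.005 and the adjusted p was 0.01, so within each of these pairs the first gene named gained more than the second.

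cel6A changed its place between the sugars. On glucose it exceeded the other 3 genes in all 6 libraries, and on GlcNAc it lay below cel5B in all 6 libraries. The ratio of cel6A to cel5B was 1.80-fold lower on GlcNAc than on glucose and 1.86-fold lower on bran-cellulose than on glucose (exact permutation p = 0.005 and adjusted p = 0.01 in both). Between bran-cellulose and GlcNAc the mean log2 change of this ratio was -0.04 (exact permutation p = 0.805, adjusted p = 0.805), with -0.46 in the deletion and 0.37 in the wild type. The libraries of these media did not overlap in either genotype, and the change had opposite signs in the genotypes, a difference that was not tested. The ratio of cel6A to cel7B was 2.14-fold lower on GlcNAc than on glucose and 3.02-fold higher on bran-cellulose than on GlcNAc (exact permutation p = 0.005, adjusted p = 0.01). It was 1.41-fold higher on bran-cellulose than on glucose (exact permutation p = 0.015, adjusted p = 0.0277).

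Between the sugars the ratio of cel7A-2 to cel6A was 1.97-fold higher on GlcNAc than on glucose (exact permutation p = 0.025, adjusted p = 0.04), but the adjusted p was above 0.05, up to 0.088, in 9 of 12 repeats that each left out 1 of the libraries compared. The libraries concerned were deletion GlcNAc replicates 1, 2 and 3, wild-type GlcNAc replicates 2 and 3, deletion glucose replicates 1 and 3 and wild-type glucose replicates 1 and 3. The remaining 3 pairs did not pass between the sugars. Between GlcNAc and glucose the log2 ratio of cel7A-2 to cel5B changed by 0.12, that of cel7A-2 to cel7B by -0.12 and that of cel5B to cel7B by -0.24 (exact permutation adjusted p of 0.753, 0.753 and 0.202). In all, 14 of the 18 comparisons of a ratio between media had an adjusted p under 0.05, 6 of 6 for bran-cellulose against glucose, 5 of 6 for bran-cellulose against GlcNAc and 3 of 6 for GlcNAc against glucose.

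Between genotypes, 1 of the 6 ratios had an adjusted p under 0.05. Over the 3 media the ratio of cel7A-2 to cel7B was 1.47-fold higher in the deletion (exact permutation p = 0.0223, adjusted p = 0.0381), and the genotypes stood apart in 1 medium of 3, GlcNAc. Its geometric mean there was 1.17 in the deletion and 0.516 in the wild type, while on bran-cellulose it was 7.78 in the deletion and 7.40 in the wild type with overlapping libraries. The adjusted p was above 0.05, up to 0.0836, in 8 of 18 repeats that each left out 1 library: deletion GlcNAc replicate 1 or 2, any wild-type GlcNAc library, deletion glucose replicate 2, or wild-type glucose replicate 1 or 3. On bran-cellulose the ratio of cel6A to cel5B was between 0.602 and 0.728 in the deletion and between 0.908 and 0.973 in the wild type, with no overlap. The ratio of cel7A-2 to cel6A did not overlap there either (2.31 to 2.44 against 1.75 to 2.15), nor did that of cel5B to cel7B (4.74 to 5.18 against 3.70 to 4.32). The remaining ratios overlapped on bran-cellulose. For single media 3 libraries against 3 cannot give an exact permutation p below 0.1, so no such test was run.

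Against the wild type within each medium, the deletion differed in a direction that depended on the medium. On bran-cellulose the mean of cel6A was at 0.529 of the wild-type mean, cel7B at 0.623, cel7A-2 at 0.657 and cel5B at 0.760. None of the 4 was called. Every log2 difference was under 1 in size, and cel7A-2 and cel5B also missed the adjusted p. The values were -0.91 for cel6A (SE 0.17, adjusted p = 0.0151), -0.68 for cel7B (SE 0.12, adjusted p = 0.0104), -0.61 for cel7A-2 (SE 0.21, adjusted p = 0.400) and -0.40 for cel5B (SE 0.12, adjusted p = 0.267), all from limma. Of all genes tested 0.203% fell, and 0.322% were lower at an adjusted p under 0.05 at any size, as were 2 of the 4. All 4 had an unadjusted limma p under 0.05, but the share of all genes under that p was not computed. The median log2 difference of the 4 was -0.64, against 0.00 for all genes. cel6A had the 96th lowest log2 difference of the 8390 genes, cel7B the 159th, cel7A-2 the 189th and cel5B the 363rd. Without wild-type bran-cellulose replicate 1, cel6A was called (-1.03, adjusted p = 0.0171), and without 1 library in turn its adjusted p was 0.05 or more in 4 of 6 fits and that of cel7B in 3 of 6. In a fit of these 6 libraries alone, limma gave cel6A an adjusted p of 0.0790 and cel7B one of 0.0162. The fit of all libraries pools the spread of a gene over all groups. Its adjusted p for cel7A-2 thus also holds the wider spread of this gene on the sugars.

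On GlcNAc the direction was the opposite. cel7A-2 was 3.67-fold higher in the deletion by means and rose (log2 difference 1.54, SE 0.21, 95% interval 1.10 to 1.99, limma's adjusted p = 1.33e-05). cel6A was 2.39-fold higher and rose (1.12, SE 0.17, 95% interval 0.76 to 1.47, adjusted p = 3.24e-05). cel5B was 1.96-fold higher (0.87, adjusted p = 1.4e-05) and cel7B was 1.65-fold higher (0.61, adjusted p = 0.000311), both under the fold threshold. Thus 2 of the 4 rose, where 16.7% of all genes rose, and all 4 were higher at any size, where 41.1% of all genes were. The median log2 difference of all genes was 0.20 here and that of the 4 was 0.99. Under median-ratio scaling of the libraries, which shifted the all-gene median by -0.20, cel6A was not called (0.91), nor was it without wild-type GlcNAc replicate 3 (0.95). cel7A-2 was called under both.

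On glucose the genotypes overlapped for each of the 4 genes and limma called 0 of them, where 4.91% of all genes rose and 6.14% fell. 0 of the 4 had an unadjusted limma p under 0.05, a threshold for which the share of all genes was not computed. The log2 difference of cel7A-2 was 0.27 with a 95% interval of -0.18 to 0.71, that of cel6A 0.30 with an interval of -0.05 to 0.66, that of cel5B 0.02 with an interval of -0.24 to 0.27 and that of cel7B -0.08 with an interval of -0.33 to 0.17. A change of the size seen for cel7A-2 on GlcNAc lies outside all 4 intervals. However, each interval uses a spread per gene pooled over all 6 groups. The coefficient of variation of cel7A-2 was 47.0% in the deletion and 22.9% in the wild type on glucose. On bran-cellulose it was 9.35% and 5.63% in the same order, so the glucose interval of cel7A-2 may be too narrow.

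**Figure D5:**
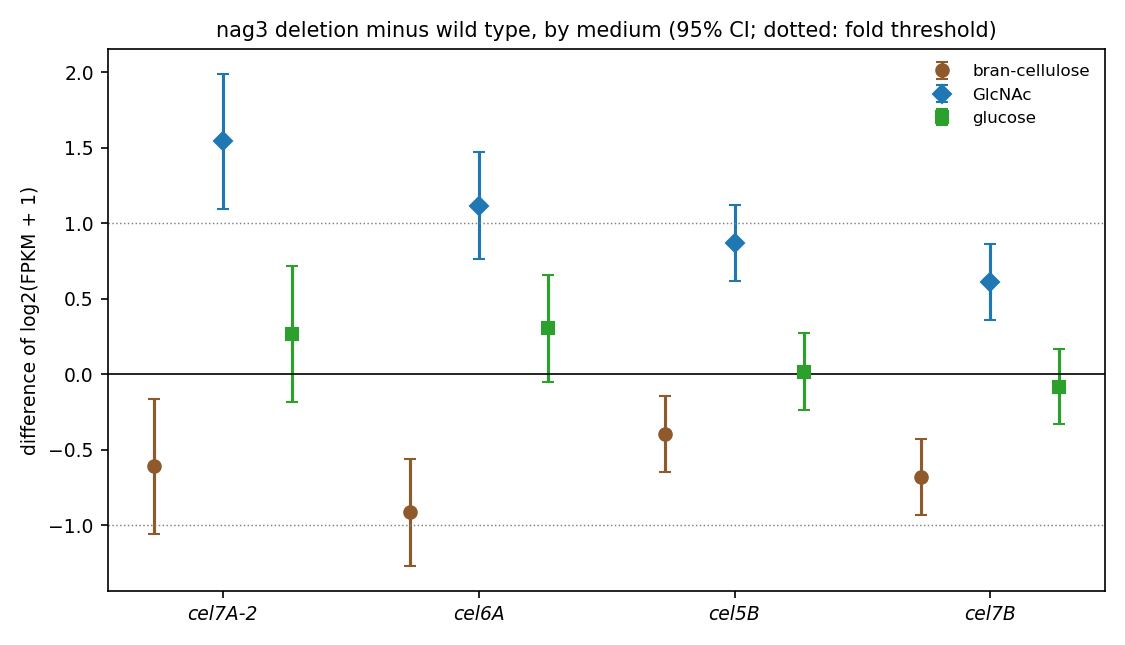
Difference of log2(FPKM + 1) between the nag3 deletion and the wild type for each gene in each medium, with 95% confidence intervals from the limma fit and dotted lines at the fold threshold of 1. For each gene the bran-cellulose value is negative, the glucose interval spans 0 and the GlcNAc value is positive, from 0.61 for cel7B to 1.54 for cel7A-2.

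The same limma fit tested how the genotype difference varied from medium to medium, which is also how far induction differed between genotypes. Set against GlcNAc, the genotype difference on bran-cellulose was lower by 2.15 for cel7A-2 (log2 -2.15, SE 0.30, adjusted p = 3.27e-05), and the values were -2.03 for cel6A, -1.29 for cel7B and -1.27 for cel5B, so that all 4 were called, where 15.3% of all genes were called in this direction. Set against glucose, the genotype difference on bran-cellulose was -1.22 for cel6A (SE 0.24, adjusted p = 0.00209), the only one of the 4 called, where 4.17% of all genes were. It was -0.88 for cel7A-2 (adjusted p = 0.0497), -0.60 for cel7B (adjusted p = 0.0193) and -0.41 for cel5B (adjusted p = 0.0984). cel7A-2 was called when deletion glucose replicate 3 (-1.09, adjusted p = 0.0142) or wild-type glucose replicate 2 (-1.01, adjusted p = 0.0355) was left out, while its adjusted p was above 0.05 in the other 10 of 12 such fits, up to 0.112. For GlcNAc set against glucose, cel7A-2 was called (1.28, SE 0.30, adjusted p = 0.00234), where 15.3% of all genes were called in this direction. The values of cel5B (0.85), cel6A (0.81) and cel7B (0.69) passed the adjusted p alone, as 30.6% of all genes did.

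GlcNAc was also compared with glucose within each genotype. In the deletion cel7A-2 was 2.14-fold higher on GlcNAc by means and was called at the edge of the threshold (log2 difference 1.00, SE 0.21, limma's adjusted p = 0.000628), where 15.3% of all genes rose. cel7B (0.79) and cel5B (0.69) were higher under the fold threshold, and cel6A was at -0.08 with overlapping libraries. At any size 3 of the 4 were higher at an adjusted p under 0.05, as were 38.9% of all genes. The call of cel7A-2 ended under median-ratio scaling (0.89) and in 4 of 6 fits with 1 library left out: 0.95 without GlcNAc replicate 1 and also without GlcNAc replicate 2, 0.93 without glucose replicate 1 and 0.79 without glucose replicate 3. In the wild type 0 of the 4 were called by limma, where 26.0% of all genes were called in either direction. At any size, 1 of the 4 had a limma adjusted p under 0.05. That was cel6A, whose mean on GlcNAc was 0.493 of its mean on glucose (-0.90, SE 0.17, adjusted p = 0.000261), and where 31.8% of all genes were lower at that adjusted p at any size. It was called, with the same sign, when the pseudocount was 0.1 (-1.02), and likewise on leaving out wild-type GlcNAc replicate 1 (-1.04). The other 3 lay between -0.27 and 0.10.

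The likeness of the 4 profiles was described by Pearson r of log2(FPKM + 1) across the 18 libraries, which fall into groups by medium and share library scaling. It lay between 0.988 and 0.997 for the 6 pairs. Among the 8389 other genes kept, the gene most like cel7A-2 was cel5B and the next was cel7B. The gene most like cel7B was cel5B, and the genes most like cel5B were cel7A-2 and cel7B. In the list of cel6A, cel5B was 2nd, cel7A-2 4th and cel7B 10th. Outside the 4, the nearest to both cel7A-2 and cel6A was PDE_01261 (r of 0.995 and 0.993), that to cel5B was PDE_01468 (0.996) and that to cel7B was PDE_09969 (0.996). PDE_01261 and PDE_01468 were also the nearest to the mean of the 4 standardised profiles.

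PDE_01261 averaged 210.3 ± 14.3 FPKM in the deletion and 219 ± 9.73 FPKM in the wild type on bran-cellulose (SD, n = 3 each), and no more than 2.53 FPKM in any sugar group. PDE_09969 averaged 187 ± 24.5 FPKM in the deletion and 243 ± 31.2 FPKM in the wild type on bran-cellulose, and PDE_01468 reached 26.3 ± 1.54 FPKM and 27.8 ± 3.25 FPKM there. On the sugars the group means of PDE_09969 lay between 10.65 and 21.92 FPKM. PDE_01468 was at 0.58 FPKM or below in every sugar library, so it passed the filter through bran-cellulose alone. Across the 12 glucose and GlcNAc libraries alone the 4 genes were much less alike. There r was 0.816 between cel7A-2 and cel5B, 0.775 between cel5B and cel7B, 0.691 between cel7A-2 and cel7B, and between 0.223 and 0.541 for cel6A with the others. The best place of any member in another member's list was there 600th of 8386 genes.

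Other genes of cellulose use and its control were taken from a list of 6 locus tags, namely the β-glucosidase genes bgl1 (PDE_02736) and bgl2 (PDE_00579), the xylanase gene xyn10A (PDE_08094), the activator genes clrB (PDE_05999) and xlnR (PDE_07674) and the repressor gene creA (PDE_03168). Over glucose, 2 of 6 rose on bran-cellulose in the deletion (bgl2 and xyn10A), where 12.4% of all genes did, and 3 of 6 in the wild type (bgl2, xyn10A and clrB), where 10.8% did. Over GlcNAc 4 of 6 rose in the deletion and 5 of 6 in the wild type, where 11.4% of all genes rose in the deletion and 12.2% in the wild type, xlnR being the one left out in both and creA being called in the wild type only; the difference in the change of creA between genotypes was not called (log2 -0.95, adjusted p = 0.00520). The rise of bgl2 lay within the range of the 4 cellulase genes in each of these comparisons. Its log2 difference was 5.59 in the deletion and 7.35 in the wild type over glucose, and 6.82 and 6.93 over GlcNAc. bgl2 was at 1305 ± 131 FPKM in the deletion and 1427 ± 195 FPKM in the wild type on bran-cellulose, 10.5 ± 1.19 and 10.6 ± 0.745 FPKM on GlcNAc, and 26.5 ± 6.56 and 7.71 ± 0.578 FPKM on glucose.

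In the deletion against the wild type, 1 of 6 fell on bran-cellulose (xyn10A, log2 difference -1.07), 1 of 6 rose on glucose (bgl2, 1.63) and 2 of 6 rose on GlcNAc (clrB, 1.23, and creA, 1.01). Of all genes, 0.203% fell on bran-cellulose, 4.91% rose on glucose and 16.7% rose on GlcNAc. On bran-cellulose the median log2 difference of the 6 was -0.05, with bgl1 at 0.40 (limma's adjusted p = 0.179) and bgl2 at -0.12, both not called. For xyn10A the call was lost on leaving out replicate 1 of the deletion on bran-cellulose (-0.9994), and that of creA ended under median-ratio scaling (0.77) and in 4 of 6 fits without 1 library (0.94 to 0.99; deletion replicates 1 and 2, wild-type replicates 2 and 3). clrB averaged 96.2 ± 5.93 FPKM in the deletion and 110.4 ± 7.44 FPKM in the wild type on bran-cellulose, 20.5 ± 1.67 and 8.17 ± 0.479 FPKM on GlcNAc, and 67.6 ± 9.39 and 38.1 ± 9.08 FPKM on glucose (SD, n = 3 each). On glucose clrB differed between the genotypes by a log2 of 0.83 (limma's adjusted p = 0.000489), and the 4 cellulase genes overlapped between them. The genotype difference on bran-cellulose set against GlcNAc was called for 2 of the 6, clrB (-1.43, limma's adjusted p = 5.41e-05) and xyn10A (-1.20). All 4 cellulase genes were called in this direction, as were 15.3% of all genes. Set against glucose, 3 of the 6 were called, bgl2 (-1.75), xyn10A (-1.15) and clrB (-1.03). So was 1 of the 4 cellulase genes, cel6A, and 4.17% of all genes were called in this direction. That call of clrB ended under median-ratio scaling (-0.95) and in 4 of 12 fits without 1 library. From glucose to GlcNAc clrB fell in both genotypes (-1.67 in the deletion, -2.07 in the wild type). At an adjusted p under 0.05, 3 of the 4 cellulase genes were higher on GlcNAc than on glucose in the deletion, as were 38.9% of all genes. In the wild type cel6A was lower, as were 31.8% of all genes. A main control gene of conidiation, brlA (PDE_00087), was chosen here with its values known. brlA averaged 253 ± 30.3 FPKM in the deletion and 253 ± 44.1 FPKM in the wild type on bran-cellulose. In the same order it was at 279 ± 61.8 and 445 ± 69.5 FPKM on GlcNAc, and 3.05 ± 1.38 and 93.4 ± 52.8 FPKM on glucose. On glucose brlA fell in the deletion (log2 difference -4.44), where the 4 cellulase genes overlapped between genotypes. The part of brlA, of clrB or of the other listed genes in the cellulase values was not tested.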

How the data were processed

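RNA of 18 libraries was used as 1 table of FPKM values that the authors deposited, the unit being given per the file headers. Aligner, counting tool, genome build and annotation were not given in the sources used here. Per the labels, genotype and medium define the 6 groups. The labels' protocols describe tag libraries cut with NlaIII and MmeI, while the header names a unit divided by length. Gene lengths are not in the table and whole reads were not recovered, so no count test was run. Values were used as deposited. limma 3.58.1 in R 4.3.3 was fitted to log2(FPKM + 1), two-sided, with 1 mean per group over 18 libraries and a trended prior, on the 8390 genes that reached 1 FPKM in 3 or more libraries, with Benjamini-Hochberg adjustment in each of 12 comparisons. Ratios were tested by exact permutation in Python 3.11.15 with numpy 2.4.6, and figures were drawn with matplotlib 3.10.9. Both procedures were tested on simulated data. Alternatives were a pseudocount of 0.1, no filter, median-ratio scaling, fits of only the groups compared, a replicate block, no fold threshold and each library left out. The 4 members and the 6 other tags were chosen with earlier results of these data known. Named beside them were the kept genes nearest in profile. A RefSeq gene table of strain HP7-1 matched 0 of the 9261 identifiers and was not used.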

Additional observations from a re-analysis of the deposited data

Results flagged for a closer look

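The genotype difference itself differed between media, by limma's test of that difference, in 6 cases. Between bran-cellulose and GlcNAc the difference of log2 differences was -2.15 for cel7A-2, -2.03 for cel6A, -1.27 for cel5B and -1.29 for cel7B. Between bran-cellulose and glucose it was -1.22 for cel6A. Between GlcNAc and glucose it was 1.28 for cel7A-2. Of all genes, 15.3%, 4.17% and 15.3% were called in these directions, in the same order. These comparisons share groups, so the 6 cases are not separate results. Each group held 3 libraries, and all 6 cases were called in each fit without 1 library, with each pseudocount, under median-ratio scaling and in fits of only the 4 groups concerned.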

How the results depend on the processing

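Of 1810 values computed under alternatives, 1684 kept their direction and their side of the threshold. All 4 members were called on bran-cellulose against each sugar, in both genotypes, under every alternative run. With a pseudocount of 0.1, 1 member instead of 0 was called for GlcNAc against glucose in the wild type. Median-ratio scaling left 1 call for deletion against wild type on GlcNAc and 0 for GlcNAc against glucose in the deletion, and turned cel5B between genotypes on glucose to -0.061; it shifted the median of all genes by at most 0.21 in any comparison. By the adjusted p alone 2 members were lower in the deletion than in the wild type on bran-cellulose (0.322% of all genes), and 4 were higher on GlcNAc (41.1%). For GlcNAc against glucose 3 were higher in the deletion (38.9%) and 1 was lower in the wild type (31.8%). For the genotype difference set against glucose, 4 were higher for GlcNAc (30.6%). For bran-cellulose 3 were lower, and the share of all genes is not given here. These shares are of the main fit, and none was counted for the pseudocount, the scaling or the fits without 1 library. Without 1 library at a time the members called ran from 0 to 1 for GlcNAc against glucose in either genotype and for deletion against wild type on bran-cellulose, from 1 to 2 for deletion against wild type on GlcNAc and from 1 to 2 for the genotype difference of bran-cellulose against glucose; ratios differing between genotypes ran from 0 to 2. In such fits small differences changed sign. Between genotypes on glucose cel5B ran from -0.075 to 0.11, cel7A-2 from -0.024 to 0.48 and cel7B from -0.17 to 0.00089, and cel6A between the sugars in the deletion from -0.16 to 0.024. The log2 ratio of cel6A to cel5B ran from -0.11 to 0.021 between bran-cellulose and GlcNAc and from -0.023 to 0.080 between genotypes. Between the sugars that of cel7A-2 to cel5B ran from -0.058 to 0.32 and that of cel7A-2 to cel7B from -0.22 to 0.048. Same-numbered replicates shared no origin in the labels, and the 45 correlations of their deviations from group means ran from -0.17 to 0.29, 6 of them over 0.1. With the replicate number as a block no member's call changed, and over all genes 32 instead of 33 were called for deletion against wild type on bran-cellulose and 2304 instead of 2299 on GlcNAc. For the ratios the block left 0 of 18 comparisons of media and 0 of 6 genotype ratios past the threshold; of the 14 media comparisons lost, 13 were at the smallest exact permutation p that 6 pairs allow (0.0312), which adjusted to 0.0536, and cel6A to cel7B between bran-cellulose and glucose had p = 0.0625 (adjusted p = 0.1). The genotype ratio lost, cel7A-2 to cel7B, had the smallest p that 9 pairs allow (0.00391 by exact permutation). Adjusted together with the media comparisons tied at 0.0312, it took the same adjusted p of 0.0536 as they did. Within bran-cellulose, an alternative chosen after seeing the data, the correlations of deviations from group means were 0.87 for cel7A-2 with cel6A, 0.66 with cel5B and 0.82 with cel7B, 0.84 for cel6A with cel5B, and 0.87 for cel5B with cel7B, which was -0.18 on the sugars. The cause of the other changes was not tested. At a few FPKM on the sugars, unknown depth limits what can be said of single libraries.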

Other observations

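Within groups, where medium and genotype are the same, how far the 4 genes moved together depended on the medium. Deviations of log2(FPKM + 1) from the group mean are described here by Pearson r, with no test, since libraries of a group share their mean and their scaling. Over the 6 bran-cellulose libraries, where the genes were abundant, r lay between 0.66 and 0.87 for the 6 pairs, and all 4 genes deviated to the same side in 4 of the 6 libraries. Over the 12 glucose and GlcNAc libraries, where the genes were at a few FPKM, r was 0.45 between cel6A and cel7B and 0.35 between cel6A and cel5B, and between -0.45 and -0.18 for the other 4 pairs. All 4 deviated to the same side in 1 of these 12 libraries. Over all 18 libraries r ran from -0.27 for cel7A-2 with cel6A to 0.50 for cel6A with cel5B, a range that hides the difference between media. The split by medium was made after seeing the data. The spread of cel7A-2 was also uneven: its coefficient of variation was 9.35% in the deletion and 5.63% in the wild type on bran-cellulose, and 47.0% in the deletion and 22.9% in the wild type on glucose, where deletion replicate 2 had 6.51 FPKM.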
